A study of Mus musculus with 6 samples.

Results

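The 36 genes described here encode the positional transcription factors of these cells: the Hox proteins of the a, b and d clusters, their Meis and Pbx partners, the T-box factors Tbx1 to Tbx5, and the forkhead factors Foxf1 and Foxf2. They are the gene symbols of these families, any Hox symbol of the 4 clusters included, whose estimated counts summed over the 6 libraries came to at least 60. Of the 30055 symbols in the deposited count table, 53 carried such a name and 36 passed the minimum. These 36 were 9 Hoxa, 8 Hoxb and 5 Hoxd genes, all 3 Meis genes, 4 Pbx genes, all 5 T-box genes and both Foxf genes. None of the 9 Hoxc symbols passed. The member nearest to the minimum was Hoxa10, with 93.1 estimated counts in all, and the nearest symbol below it was Hoxc13, with 40.1.

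RNA was sequenced from lung endothelial cells kept in culture, which came from C57BL6 mice that were 3 weeks old, labelled female, and null for Ch25h, the gene of cholesterol 25-hydroxylase. In the group called TEV plus reserpine, the cells were given 10 µM reserpine, a blocker of vesicular monoamine transport, for 8 h and then 20 µg/ml of tumour-derived extracellular vesicles (TEV) for 12 h. In the TEV group they were given the same vesicles without reserpine, and in the vehicle group neither. The vesicles were shed by MC38 cells, a mouse colorectal tumour line. Every group lacked Ch25h, so the data hold no cells with an intact gene. There was no group with reserpine alone, so its effect without vesicles was not analysed here. Each of the 3 groups held 2 libraries, and no source used here says whether these were separate cultures or animals, so p-values measure the spread between these libraries, which may be technical.

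Hox genes lie in clusters, and the order of the genes along a cluster matches the order in which they are active from head to tail of the embryo, so that adult cells keep a Hox code of their place of origin. Hox proteins bind DNA together with the TALE homeodomain proteins of the Pbx and Meis families, which raise their affinity and specificity. Polycomb complexes hold silent parts of the clusters shut, trithorax-group enzymes keep active parts open, and retinoic acid switches on the genes at the 3′ end of a cluster. In the lung, Tbx4, Tbx5 and Foxf1 are best known from the mesenchyme, where Tbx4 and Tbx5 act in lung budding and airway branching, and Foxf1 is also needed in the capillary endothelium.

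Among the Hox genes, those of the Hoxd cluster were higher and most of the Hoxb cluster lower with vesicles, as described further on, and promoter sequences of both clusters are shown for that reason. RefSeq promoters (build GRCm38.p6, 250 bases before to 50 after the start of the gene) were matched for 22 of the 36 members, among them all 5 Hoxd genes and 2 of the 8 Hoxb genes. They lie on chromosomes 2 and 11 and are given 5′ to 3′ on the + strand, the strand of the gene. Capitals mark the string AGGTCA on either strand, which is the core of the sites that retinoic acid receptors bind. The windows are chr2:74691641-74691940 for Hoxd10, chr2:74697513-74697812 for Hoxd9, chr2:74704365-74704664 for Hoxd8, chr2:74711743-74712042 for Hoxd3, chr2:74721728-74722027 for Hoxd4, chr11:96281655-96281954 for Hoxb8 and chr11:96318017-96318316 for Hoxb4.
Hoxd10: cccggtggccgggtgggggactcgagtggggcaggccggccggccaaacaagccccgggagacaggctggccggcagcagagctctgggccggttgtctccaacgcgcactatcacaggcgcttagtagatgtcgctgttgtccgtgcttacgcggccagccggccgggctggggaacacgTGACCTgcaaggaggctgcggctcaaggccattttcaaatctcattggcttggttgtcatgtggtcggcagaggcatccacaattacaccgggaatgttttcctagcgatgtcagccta
Hoxd9: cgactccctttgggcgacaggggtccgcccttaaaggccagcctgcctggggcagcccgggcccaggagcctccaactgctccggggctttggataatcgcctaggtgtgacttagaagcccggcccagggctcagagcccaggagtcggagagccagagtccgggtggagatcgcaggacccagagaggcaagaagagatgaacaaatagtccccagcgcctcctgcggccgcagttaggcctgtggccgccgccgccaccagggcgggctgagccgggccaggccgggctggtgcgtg
Hoxd8: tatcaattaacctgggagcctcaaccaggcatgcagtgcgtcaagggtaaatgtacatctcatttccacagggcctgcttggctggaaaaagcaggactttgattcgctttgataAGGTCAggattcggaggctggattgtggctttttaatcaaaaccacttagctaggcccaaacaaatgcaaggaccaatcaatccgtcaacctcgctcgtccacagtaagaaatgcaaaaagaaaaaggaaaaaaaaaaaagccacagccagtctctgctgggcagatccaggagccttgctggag
Hoxd3: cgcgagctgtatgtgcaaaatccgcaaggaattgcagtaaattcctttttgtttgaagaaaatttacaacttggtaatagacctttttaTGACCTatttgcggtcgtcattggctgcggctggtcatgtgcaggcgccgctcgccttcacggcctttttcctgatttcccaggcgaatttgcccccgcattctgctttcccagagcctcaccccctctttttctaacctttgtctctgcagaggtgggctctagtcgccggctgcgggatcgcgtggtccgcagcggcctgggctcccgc
Hoxd4: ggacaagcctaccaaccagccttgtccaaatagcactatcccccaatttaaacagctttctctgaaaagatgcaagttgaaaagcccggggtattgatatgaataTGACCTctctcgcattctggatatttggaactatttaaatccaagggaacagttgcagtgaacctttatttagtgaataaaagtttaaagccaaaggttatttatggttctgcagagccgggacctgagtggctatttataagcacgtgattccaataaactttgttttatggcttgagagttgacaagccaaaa
Hoxb8: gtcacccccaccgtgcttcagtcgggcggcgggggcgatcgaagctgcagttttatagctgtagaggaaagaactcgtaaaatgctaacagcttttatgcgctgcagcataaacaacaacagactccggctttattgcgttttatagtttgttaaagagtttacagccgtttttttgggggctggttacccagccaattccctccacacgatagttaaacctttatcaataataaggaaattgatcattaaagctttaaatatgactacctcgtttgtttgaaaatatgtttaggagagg
Hoxb4: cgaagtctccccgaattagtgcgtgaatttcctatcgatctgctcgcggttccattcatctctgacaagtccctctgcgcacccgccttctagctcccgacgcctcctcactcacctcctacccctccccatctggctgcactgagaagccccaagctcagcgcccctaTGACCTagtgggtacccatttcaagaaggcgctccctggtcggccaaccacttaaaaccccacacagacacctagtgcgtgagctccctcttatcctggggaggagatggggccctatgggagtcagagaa
AGGTCA was found in 4 of the 5 Hoxd promoters, in Hoxb4 and not in Hoxb8, in 1 of 8 Hoxa promoters (Hoxa5), and in none of the 9 promoters of the other members. It was found in 16.3% of all 32851 promoters of the table. The string TGACAG, which Meis proteins bind, was also searched on both strands. It was found in 2 of the 24 member promoters, those of Hoxa2 and Hoxa3, against 19.2% of all promoters, and no member promoter held both strings. The 5 Hoxd promoters held between 4 and 22 CpG dinucleotides with a median of 20.0, against a median of 7.0 over all promoters. These matches describe the letters of the windows; binding was not measured.

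Libraries held between 22270657 and 81225627 estimated counts, so that 3 counts in a library stood for between 0.0369 and 0.135 CPM, the unit of counts scaled to library size. Levels below are CPM with the TMM factors of edgeR. All 12 endothelial marker genes were detected in every group, and their summed level was between 9866 and 10097 CPM with TEV plus reserpine, between 10142 and 10314 CPM with TEV, and between 4983 and 5020 CPM with vehicle. Endothelial transcripts were thus present in every group, which does not show that the cells were endothelial alone. The vehicle libraries also held stromal transcripts, which were lower in both vesicle groups: 12 fibroblast markers summed to between 80.7 and 98.2 CPM with TEV plus reserpine, between 56.9 and 65.8 CPM with TEV, and between 2878 and 3308 CPM with vehicle. The values of these markers stand beside the members below where they move with them. In bulk RNA, fewer cells of a type and less RNA per cell cannot be told apart.

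Most of the positional factors differed between the TEV and vehicle libraries. Stromal marker levels also differed between these groups, and their part in the differences was not tested. P-values came from the quasi-likelihood test of edgeR and were adjusted over 15035 genes, with a call made under 0.05. Of the 36 members, 10 were called higher and 16 lower with TEV than with vehicle, and 22 passed a 2-fold difference in the fitted value. Over all genes tested 25.1% were called higher and 24.6% lower, so the share of members called higher, 27.8%, was near the background, and the share called lower was 44.4%. The median log2 change was -0.36 over the members and 0.01 over all genes. The families did not move alike: all 5 Hoxd genes rose, 7 of 8 Hoxb genes fell, 3 of 9 Hoxa genes rose, and all 5 T-box genes fell. All 36 members passed the filter on low counts, and 22 of the 26 calls held under every alternative setting run. Hoxa6, Hoxa10 and Hoxd3 were among those that did not hold. Both TEV libraries lay above both vehicle libraries in 13 of the 36 members and below them in 20. How often this held over all genes was not counted, so separation of libraries in the members below is description only.

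**Figure D1:**
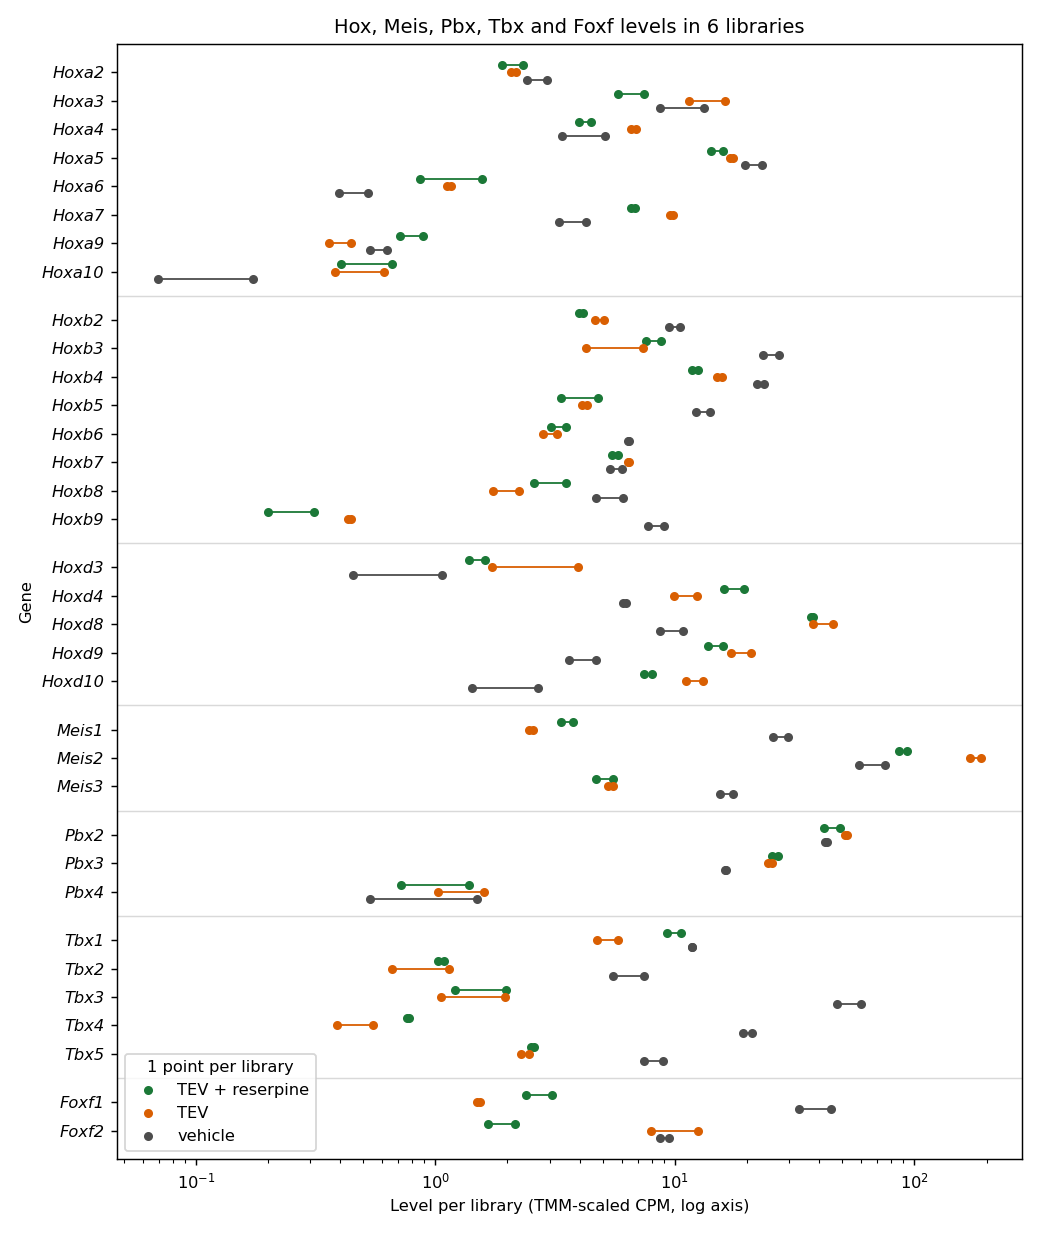
Level of 34 members in each library, in TMM-scaled CPM on a log axis, with 1 point per library and a line joining the 2 libraries of a group (green, TEV plus reserpine; orange, TEV; grey, vehicle). All 5 Hoxd genes have both TEV points above both vehicle points, and all 5 T-box genes have both TEV points below them. How often this held over all genes was not counted.

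The Hoxd genes that were measured were the anterior paralogs Hoxd3 and Hoxd4, the central Hoxd8, and Hoxd9 and Hoxd10, which pattern the limb and the caudal trunk in the embryo. Hoxd8 had 37.1 and 37.6 CPM with TEV plus reserpine, 45.7 and 37.9 CPM with TEV, and 8.69 and 10.9 CPM with vehicle. Hoxd9 had 15.9 and 13.8 CPM with TEV plus reserpine, 20.9 and 17.1 CPM with TEV, and 4.67 and 3.62 CPM with vehicle. Hoxd10, which has been described as a brake on endothelial migration, had 8.00 and 7.41 CPM with TEV plus reserpine, 13.2 and 11.1 CPM with TEV, and 1.42 and 2.68 CPM with vehicle. In each of these 3 genes every library given vesicles lay above both vehicle libraries. Summed endothelial markers were also higher, between 10142 and 10314 CPM with TEV against between 4983 and 5020 CPM with vehicle. Of these 12 markers 8 rose and 4 fell, where 25.1% and 24.6% of all genes tested did, and their part in the Hoxd rises was not tested. With TEV against vehicle, the log2 changes ± SE were 2.10 ± 0.15 for Hoxd8 (adjusted p = 8.91e-05), 2.18 ± 0.19 for Hoxd9 (adjusted p = 0.000192) and 2.59 ± 0.30 for Hoxd10 (adjusted p = 0.00064). Hoxd8 was thus 4.29-fold and Hoxd9 4.54-fold higher. Cells given TEV plus reserpine had log2 changes against vehicle of 1.94 ± 0.15 for Hoxd8 (adjusted p = 0.000193), 1.83 ± 0.19 for Hoxd9 (adjusted p = 0.000597) and 1.93 ± 0.30 for Hoxd10 (adjusted p = 0.00324).

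Hoxd4, which contributes to the neck vertebrae and hindbrain, had 19.5 and 16.1 CPM with TEV plus reserpine, 9.94 and 12.4 CPM with TEV, and 6.08 and 6.23 CPM with vehicle. Hoxd3, which has been described to promote the angiogenic state of endothelium, had 1.38 and 1.61 CPM with TEV plus reserpine, 1.72 and 3.95 CPM with TEV, and 1.07 and 0.453 CPM with vehicle. With TEV against vehicle, the log2 change was 0.86 ± 0.17 for Hoxd4 (adjusted p = 0.0061) and 1.88 ± 0.54 for Hoxd3 (adjusted p = 0.0255). The call of Hoxd3 was lost without TEV replicate 2 (log2 change 1.15, adjusted p = 0.155) and without vehicle replicate 2 (log2 change 1.42, adjusted p = 0.105), and the log2 change was 2.65 without vehicle replicate 1. These 2 genes cannot be read one by one with full confidence, because in the GENCODE annotation 53.1% of the exonic bases of Hoxd3 and 39.1% of those of Hoxd4 also belong to Gm28230, a gene model on the same strand. The estimated counts of these 3 symbols summed came to 26.3 and 24.1 CPM with TEV plus reserpine, 20.4 and 24.9 CPM with TEV, and 8.85 and 8.15 CPM with vehicle. The sum, which was examined after the data were seen, was 1.41 ± 0.14 higher on the log2 scale with TEV than with vehicle (adjusted p = 0.000354) and 1.56 higher with TEV plus reserpine than with vehicle (adjusted p = 0.000361).

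Of the 8 Hoxb genes, 7 fell with TEV against vehicle and Hoxb7 did not. Hoxb9, the most 5′ Hoxb gene measured, had 0.313 and 0.201 CPM with TEV plus reserpine, 0.444 and 0.433 CPM with TEV, and 9.03 and 7.70 CPM with vehicle. Its log2 change was -4.25 ± 0.29 with TEV against vehicle, or 19.0-fold lower (adjusted p = 6.94e-05). With TEV plus reserpine against vehicle the log2 change was -5.05 ± 0.32 (adjusted p = 9.7e-05). Hoxb3 had 7.59 and 8.76 CPM with TEV plus reserpine, 4.28 and 7.40 CPM with TEV, and 27.3 and 23.4 CPM with vehicle. Hoxb5, which in mouse lung acts in the mesenchyme during branching and in endothelium promotes Kdr, had 4.78 and 3.36 CPM with TEV plus reserpine, 4.30 and 4.10 CPM with TEV, and 14.0 and 12.2 CPM with vehicle. No library given vesicles reached either vehicle library in any of these 3 genes. Against vehicle, the log2 change with TEV was -2.10 ± 0.26 for Hoxb3 (adjusted p = 0.000827) and -1.64 ± 0.21 for Hoxb5 (adjusted p = 0.000936). The antisense gene Hoxb3os covers 52.9% of the exonic bases of Hoxb3 and 27.3% of those of Hoxb2. With no strand stated for the libraries, its reads there cannot be told apart from those of the 2 Hoxb genes.

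The other Hoxb genes fell by less. Hoxb2, a hindbrain gene, had 3.98 and 4.13 CPM with TEV plus reserpine, 5.08 and 4.62 CPM with TEV, and 10.5 and 9.44 CPM with vehicle. Hoxb4, known for the expansion of blood stem cells, had 12.5 and 11.7 CPM with TEV plus reserpine, 15.7 and 14.9 CPM with TEV, and 23.5 and 21.9 CPM with vehicle. Both genes were lower in all 4 libraries given vesicles than in either vehicle library. Hoxb6 had 3.53 and 3.04 CPM with TEV plus reserpine, 2.80 and 3.22 CPM with TEV, and 6.41 and 6.37 CPM with vehicle. Hoxb8 had 3.53 and 2.58 CPM with TEV plus reserpine, 1.75 and 2.24 CPM with TEV, and 6.06 and 4.70 CPM with vehicle. With TEV against vehicle, the log2 changes of these 4 genes lay between -1.42 ± 0.27 (Hoxb8, adjusted p = 0.00536) and -0.57 ± 0.11 (Hoxb4, adjusted p = 0.00626). Hoxb7 was the exception, with 5.76 and 5.48 CPM with TEV plus reserpine, 6.44 and 6.35 CPM with TEV, and 5.34 and 6.02 CPM with vehicle, and it passed no test (TEV against vehicle, log2 change 0.17 ± 0.17, adjusted p = 0.427).

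The Hoxa genes moved in parts. Toward the 3′ end of the cluster, Hoxa2 to Hoxa5 passed no test between TEV and vehicle, with log2 changes between -0.34 (Hoxa2, adjusted p = 0.323) and 0.66 (Hoxa4, adjusted p = 0.0567). Hoxa5, which in the mouse is needed for a normal trachea and lung and in endothelium is described as antiangiogenic, had 15.8 and 14.1 CPM with TEV plus reserpine, 17.0 and 17.5 CPM with TEV, and 23.0 and 19.7 CPM with vehicle. Its log2 change was -0.31 ± 0.13 with TEV (adjusted p = 0.089) and -0.52 ± 0.13 with TEV plus reserpine (adjusted p = 0.0212), both against vehicle. The second call was lost without TEV plus reserpine replicate 1 (adjusted p = 0.0512), TEV plus reserpine replicate 2 (adjusted p = 0.107) or vehicle replicate 1 (adjusted p = 0.135). Hoxa7 had 6.83 and 6.57 CPM with TEV plus reserpine, 9.83 and 9.52 CPM with TEV, and 4.25 and 3.27 CPM with vehicle. It was 1.36 ± 0.19 higher on the log2 scale with TEV than with vehicle (adjusted p = 0.00126). Its log2 change with TEV plus reserpine against vehicle was 0.83 ± 0.19 (adjusted p = 0.0139), a call lost without TEV plus reserpine replicate 1 (adjusted p = 0.0552) or vehicle replicate 2 (adjusted p = 0.0673).

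Hoxa6 and Hoxa10 also rose with TEV, from low levels that leave their calls weak. Hoxa6 had 1.56 and 0.861 CPM with TEV plus reserpine, 1.17 and 1.12 CPM with TEV, and 0.395 and 0.522 CPM with vehicle (TEV against vehicle, log2 change 1.32 ± 0.44, adjusted p = 0.0414). That call was lost without any 1 of the TEV or vehicle libraries (adjusted p between 0.0952 and 0.188). Hoxa10 had 0.402 and 0.660 CPM with TEV plus reserpine, 0.611 and 0.382 CPM with TEV, and 0.0697 and 0.174 CPM with vehicle, where the 2 libraries held 3.22 and 5.13 estimated counts. Its log2 change of 2.05 ± 0.66 with TEV against vehicle (adjusted p = 0.0388) lost its call without any 1 of the 6 libraries (adjusted p between 0.0568 and 0.221), and was 1.48 without vehicle replicate 1 and 2.76 without vehicle replicate 2. Hoxa9, a regulator of postnatal endothelial genes, stayed under 1 CPM in all 6 libraries and passed no test; its log2 change with TEV against vehicle was -0.50 (adjusted p = 0.35).

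**Figure D2:**
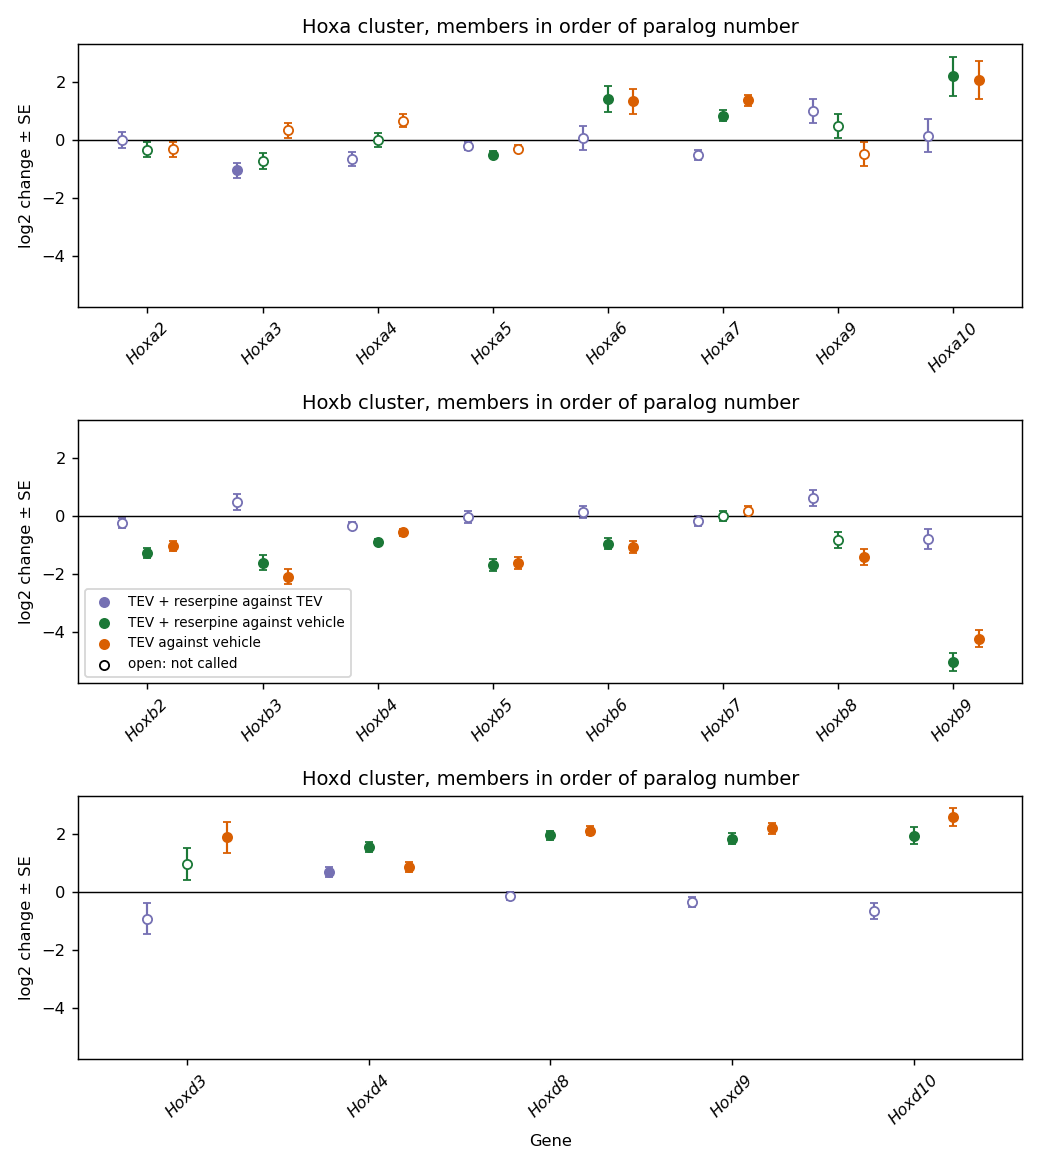
Log2 change ± SE from edgeR for 21 Hox members in 3 panels by cluster, genes in order of paralog number (purple, TEV plus reserpine against TEV; green, TEV plus reserpine against vehicle; orange, TEV against vehicle; filled points were called). All orange points of the Hoxd panel are filled and above 0, and 7 of 8 in the Hoxb panel are filled and below 0, the lowest being Hoxb9 at -4.25.

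Grouped by paralog number and not by cluster, the Hox genes showed no single direction. With TEV against vehicle, 2 of the 9 anterior genes (paralogs 1 to 4) rose and 3 fell, 3 of the 8 central genes (paralogs 5 to 8) rose and 3 fell, and 3 of the 5 posterior genes (paralogs 9 and 10) rose and 1 fell. Over all genes tested 25.1% were called higher and 24.6% lower, and the anterior shares were 22.2% and 33.3%. The risers include Hoxa6, Hoxa10 and Hoxd3, whose calls did not hold under every setting. Paralogs of the same number differed in direction: Hoxb9 fell by 4.25 on the log2 scale while Hoxd9 was 2.18 higher, and Hoxb8 fell by 1.42 while Hoxd8 was 2.10 higher. The difference between paralogs was not tested. The Hoxc symbols had at most 40.1 estimated counts in all 6 libraries summed and are not described further.

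Among the partners of the Hox proteins, the 3 Meis genes changed most. Meis2, at 92.8 and 86.5 CPM with TEV plus reserpine, 171 and 190.2 CPM with TEV, and 75.3 and 58.7 CPM with vehicle, rose by 1.43 ± 0.13 on the log2 scale with TEV against vehicle (adjusted p = 0.000247). Meis1, a Hox cofactor of blood stem cells and megakaryocytes, had 3.35 and 3.76 CPM with TEV plus reserpine, 2.47 and 2.56 CPM with TEV, and 29.7 and 25.6 CPM with vehicle. Meis3 had 5.54 and 4.68 CPM with TEV plus reserpine, 5.52 and 5.26 CPM with TEV, and 15.5 and 17.4 CPM with vehicle. Meis2 thus lay above vehicle in every library given vesicles, and Meis1 and Meis3 below it. With TEV against vehicle, the log2 change was -3.46 ± 0.16 for Meis1 (adjusted p = 1.75e-05), and -1.61 ± 0.16 for Meis3 (adjusted p = 0.000337).

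Pbx3, another TALE partner, rose with TEV. It had 25.5 and 26.9 CPM with TEV plus reserpine, 25.4 and 24.4 CPM with TEV, and 16.1 and 16.4 CPM with vehicle, a log2 change with TEV of 0.62 ± 0.10 (adjusted p = 0.0027). Pbx2 and Pbx4 passed no test, with log2 changes of 0.27 (adjusted p = 0.0578) and 0.40 (adjusted p = 0.595) with TEV against vehicle.

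The T-box and Foxf genes held the largest falls among the members. Tbx4 had 0.759 and 0.775 CPM with TEV plus reserpine, 0.389 and 0.547 CPM with TEV, and 21.0 and 19.3 CPM with vehicle. Tbx3, a repressor that holds back senescence, had 1.21 and 1.98 CPM with TEV plus reserpine, 1.06 and 1.96 CPM with TEV, and 47.6 and 60.1 CPM with vehicle. Foxf1 had 3.08 and 2.38 CPM with TEV plus reserpine, 1.499 and 1.54 CPM with TEV, and 33.0 and 44.8 CPM with vehicle. In these 3 genes the vehicle libraries stood far above every library given vesicles. With TEV against vehicle the log2 changes were -5.37 ± 0.23 for Tbx4 (41.5-fold lower, adjusted p = 1.27e-05), -5.09 ± 0.33 for Tbx3 (34.1-fold lower, adjusted p = 5.49e-05) and -4.67 ± 0.22 for Foxf1 (25.5-fold lower, adjusted p = 1.97e-05). Against vehicle, the values with TEV plus reserpine were -4.71 ± 0.22 for Tbx4 (adjusted p = 3.88e-05), -5.03 ± 0.34 for Tbx3 (adjusted p = 0.000117) and -3.84 ± 0.22 for Foxf1 (adjusted p = 6.94e-05).

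Tbx2, the close relative of Tbx3, had 1.03 and 1.09 CPM with TEV plus reserpine, 1.14 and 0.662 CPM with TEV, and 7.41 and 5.50 CPM with vehicle (TEV against vehicle, log2 change -2.87 ± 0.34, adjusted p = 0.000717). Tbx5, the factor of heart and forelimb that acts with Tbx4 in the lung bud, had 2.59 and 2.50 CPM with TEV plus reserpine, 2.28 and 2.46 CPM with TEV, and 8.96 and 7.45 CPM with vehicle (TEV against vehicle, log2 change -1.79 ± 0.20, adjusted p = 0.000569). Both were lower in each library given vesicles than in each vehicle library. Tbx1, the gene of the pharyngeal arches, had 10.6 and 9.27 CPM with TEV plus reserpine, 4.75 and 5.79 CPM with TEV, and 11.8 CPM in both vehicle libraries. It was lower with TEV than with vehicle (log2 change -1.16 ± 0.17, adjusted p = 0.00155). Foxf2, a factor of pericytes and of gut and palate mesenchyme, had 2.14 and 1.67 CPM with TEV plus reserpine, 12.5 and 7.92 CPM with TEV, and 8.64 and 9.47 CPM with vehicle. The TEV and vehicle libraries of Foxf2 overlapped (log2 change 0.17 ± 0.25, adjusted p = 0.601), and the TEV plus reserpine libraries lay below both groups (against vehicle, log2 change -2.26 ± 0.28, adjusted p = 0.00126).

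**Figure D3:**
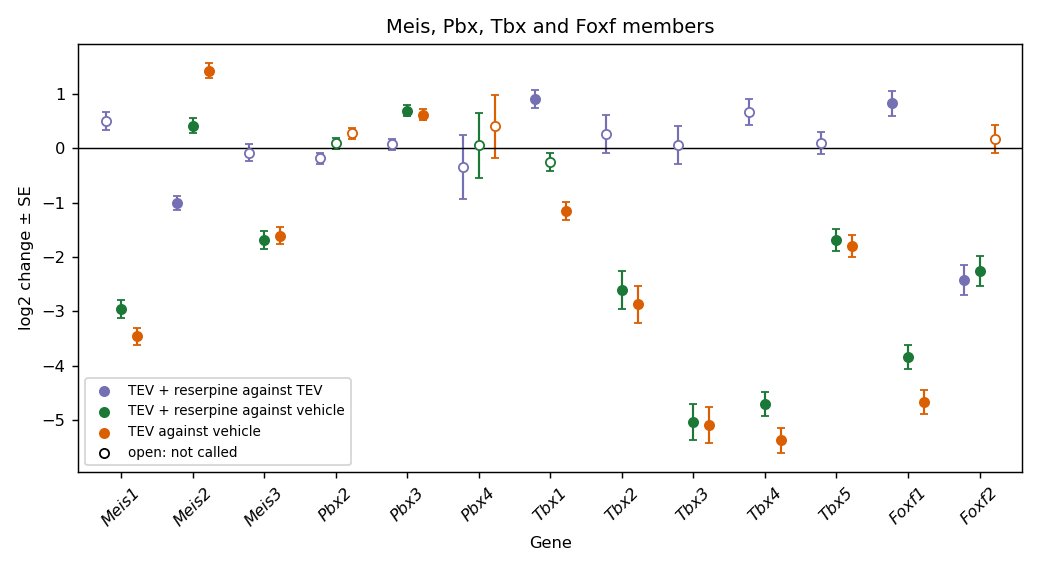
Log2 change ± SE from edgeR for 13 Meis, Pbx, T-box and Foxf members (purple, TEV plus reserpine against TEV; green, TEV plus reserpine against vehicle; orange, TEV against vehicle; filled points were called). Tbx3, Tbx4 and Foxf1 have the lowest orange points, between -5.37 and -4.67, and Meis2 the highest, at 1.43.

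Markers of fibroblasts, pericytes, smooth muscle and mesothelium moved with these falls. The 7 members at least 4-fold lower with TEV than with vehicle were Tbx4, Tbx3, Foxf1, Hoxb9, Meis1, Tbx2 and Hoxb3. Of 11 fibroblast markers tested, 10 fell with TEV against vehicle and none rose, with a median log2 change of -5.11, and Tcf21 had no count in the TEV libraries. All 9 pericyte and smooth muscle markers fell, with a summed level between 850 and 931 CPM with TEV plus reserpine, between 782 and 891 CPM with TEV, and between 1999 and 2022 CPM with vehicle, and Cspg4 had no count in either vesicle group. Acta2 and Tagln held most of that sum. Tagln averaged 684 CPM with TEV and 835 CPM with vehicle (log2 change -0.29), while the log2 change of Pdgfrb was -5.48. All 5 mesothelial markers fell, and their sum lay between 5.003 and 5.51 CPM with TEV plus reserpine, between 1.83 and 2.58 CPM with TEV, and between 33.9 and 36.9 CPM with vehicle. In the other lists a smaller part of the markers fell, where 25.1% of all genes tested were called higher and 24.6% lower. Of 6 macrophage and leukocyte markers tested, 1 rose and 3 fell. Their sum lay between 29.2 and 30.1 CPM with TEV plus reserpine, between 21.8 and 22.3 CPM with TEV, and between 47.9 and 59.6 CPM with vehicle. Of 4 lymphatic endothelial markers none rose and 2 fell. Of 4 lung epithelial markers tested, 1 rose and 2 fell, Nkx2-1 and Krt8, which averaged only 0.464 and 0.801 CPM with vehicle. The riser was Krt18, with 30.6 and 32.1 CPM with TEV and 5.88 and 5.36 CPM with vehicle. Among 12 endothelial markers 8 rose and 4 fell. The part of these cells in the falls of the T-box, Foxf1, Hoxb, Meis1 and Meis3 genes was not tested. Nor was their part in the rises of the Hoxd genes, Hoxa7, Meis2 and Pbx3.

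**Figure D4:**
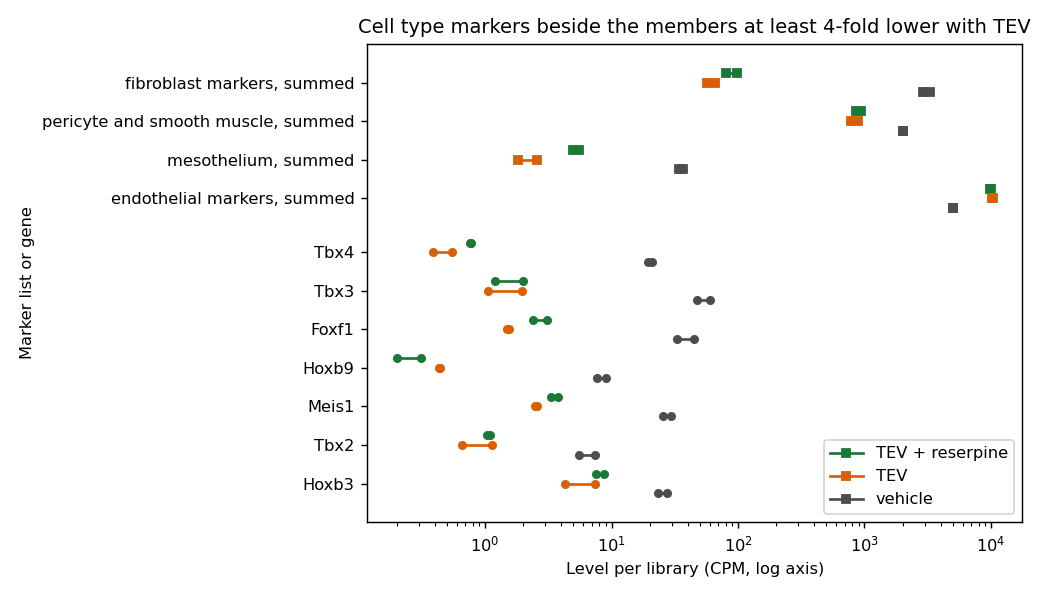
Summed level of 4 marker lists (squares) and level of the 7 members at least 4-fold lower with TEV (circles) in each library, in CPM on a log axis (green, TEV plus reserpine; orange, TEV; grey, vehicle). Fibroblast, pericyte and mesothelial sums and all 7 members are highest in the vehicle libraries, while the endothelial sum is lowest there.

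Few of these genes differed between TEV plus reserpine and TEV. Against TEV alone, 3 of the 36 members were called higher with TEV plus reserpine (Foxf1, Hoxd4 and Tbx1) and 3 lower (Foxf2, Hoxa3 and Meis2), where 15.7% of all genes tested were called higher and 16% lower. Each share of the members was 8.33%, below the background. The median log2 change was -0.07 over the members and 0.0004 over all genes. No Hoxb gene was called. The 8 Hoxb genes had log2 changes between -0.81 (Hoxb9, adjusted p = 0.114) and 0.60 (Hoxb8, adjusted p = 0.143), and Hoxd8, Hoxd9 and Hoxd10 had -0.16, -0.35 and -0.66 (adjusted p = 0.423, 0.174 and 0.116). Hoxd4 and Hoxa3 were the Hox genes called. The count of members called higher was 1 without TEV replicate 1 and 0 without TEV plus reserpine replicate 1, and the count called lower was 5 without vehicle replicate 2. The calls of Foxf2 and Meis2 held under every alternative setting run.

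Foxf2 had the largest difference of the 6, with a log2 change of -2.43 ± 0.28 with TEV plus reserpine against TEV (adjusted p = 0.00195). Meis2 followed at -1.01 ± 0.13 (adjusted p = 0.0029), and both TEV plus reserpine libraries, at 92.8 and 86.5 CPM, lay below both TEV libraries, at 171 and 190.2 CPM. They still lay above the vehicle libraries (log2 change 0.42 ± 0.13, adjusted p = 0.0436), but that call was lost without TEV plus reserpine replicate 1 (adjusted p = 0.156), TEV plus reserpine replicate 2 (adjusted p = 0.0938) or vehicle replicate 2 (adjusted p = 0.2004). Hoxa3, a gene of the thymus, parathyroid and carotid body that promotes endothelial migration, had 7.41 and 5.80 CPM with TEV plus reserpine, 16.1 and 11.5 CPM with TEV, and 13.2 and 8.70 CPM with vehicle. Its log2 change against TEV was -1.06 ± 0.27 (adjusted p = 0.0262), a call lost without TEV replicate 1 (adjusted p = 0.125), TEV plus reserpine replicate 1 (adjusted p = 0.0645) or TEV plus reserpine replicate 2 (adjusted p = 0.132).

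Tbx1 was 0.91 ± 0.17 higher on the log2 scale with TEV plus reserpine than with TEV (adjusted p = 0.0093), a call lost without TEV plus reserpine replicate 1 (adjusted p = 0.0515). Against vehicle its log2 change with TEV plus reserpine was -0.25 ± 0.17 (adjusted p = 0.27), so it passed no test there. Foxf1 was 0.83 ± 0.23 higher than with TEV (adjusted p = 0.0332), while remaining far below vehicle, and that call was lost without any 1 of the TEV or TEV plus reserpine libraries (adjusted p between 0.0552 and 0.143). Beside it, 4 of 11 fibroblast markers rose and 1 fell in the same comparison, and 2 of 9 pericyte and smooth muscle markers rose. All genes tested gave 15.7% higher and 16% lower, and the part of these markers in the Foxf1 difference was not tested. Hoxd4 was 0.67 ± 0.17 higher (adjusted p = 0.0254), a call lost without TEV replicate 1 (adjusted p = 0.120) or TEV plus reserpine replicate 1 (adjusted p = 0.128). Summed with Hoxd3 and Gm28230, which share its exons, the log2 change was 0.15 (adjusted p = 0.440).

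**Figure D5:**
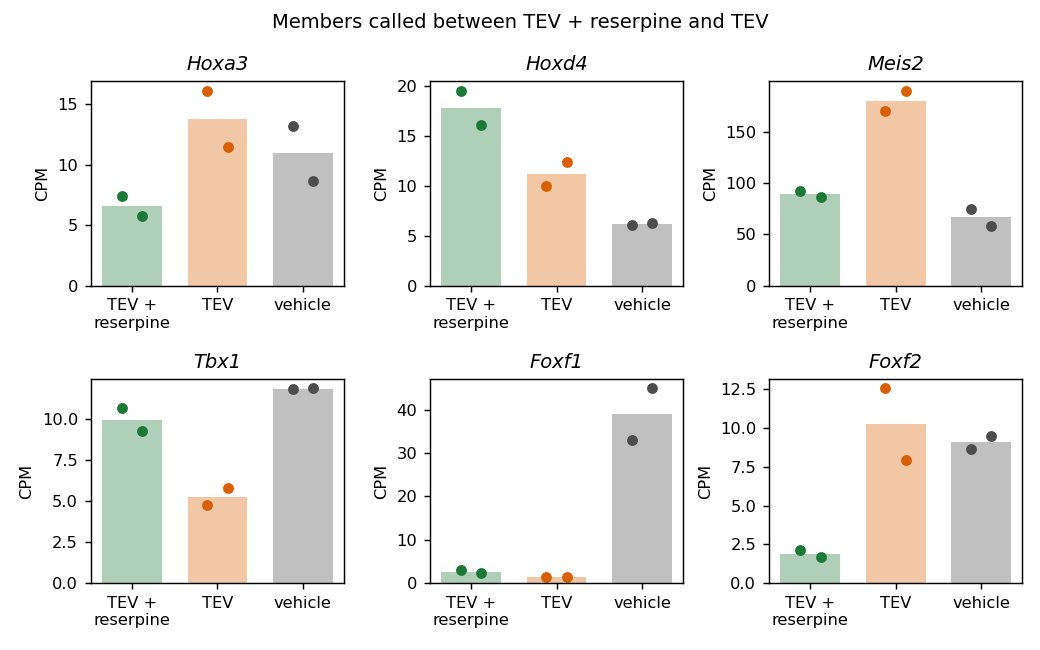
Level in CPM of the 6 members called between TEV plus reserpine and TEV; bars are group means of 2 libraries and points the libraries, in the order TEV plus reserpine, TEV, vehicle. Foxf2 and Hoxa3 are lowest with TEV plus reserpine, Hoxd4 is highest there, and Foxf1 is far below vehicle in both vesicle groups.

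Set against vehicle, the cells given both agents had 9 members called higher and 16 lower, where 19.1% of all genes tested were called higher and 19.9% lower. The share of members was 25% higher and 44.4% lower, and the median log2 change was -0.43 over the members and -0.02 over all genes. By family, 4 of 5 Hoxd genes, 3 of 9 Hoxa genes, Meis2 and Pbx3 were higher. Among those lower were 6 of 8 Hoxb genes, Hoxa5, 4 of 5 T-box genes, both Foxf genes, Meis1 and Meis3. Apart from Hoxb9, the called Hoxb genes had log2 changes between -1.70 (Hoxb5, adjusted p = 0.00139) and -0.91 (Hoxb4, adjusted p = 0.00147), and Hoxb8 missed the threshold at -0.82 (adjusted p = 0.0524). Hoxd4 was 1.53 ± 0.17 higher (adjusted p = 0.000882), and Hoxd3 passed no test at 0.95 (adjusted p = 0.214). The log2 changes of Meis1, Tbx2 and Tbx5 were -2.95 ± 0.16, -2.60 ± 0.35 and -1.69 ± 0.21 (adjusted p = 5.48e-05, 0.00171 and 0.0012). This comparison shares its libraries with the other 2, so its calls are no independent repeat of them. The count of members higher was 5 without vehicle replicate 2 and 5 without TEV plus reserpine replicate 1. Calls were also lost for Hoxb6 (without TEV plus reserpine replicate 2, adjusted p = 0.0572, or vehicle replicate 1, adjusted p = 0.0537), for Hoxa6 (without any library but TEV plus reserpine replicate 2, adjusted p between 0.0702 and 0.202) and for Hoxa10 (without any 1 of the 6 libraries, adjusted p between 0.0651 and 0.225, with a log2 change of 2.90 without vehicle replicate 2 against 2.19 with it).

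Genes that act with or upstream of the Hox clusters were examined as lists, whose counts stand beside the shares of all genes tested: 25.1% higher and 24.6% lower with TEV against vehicle, 15.7% and 16% with TEV plus reserpine against TEV, and 19.1% and 19.9% with TEV plus reserpine against vehicle. Of 11 other TALE proteins and interactors, 2 rose and 2 fell with TEV against vehicle, both shares being under those of all genes. Gmnn, a Hox-binding inhibitor of DNA replication licensing, averaged 19.6 ± 1.13 CPM with TEV and 5.38 ± 0.515 CPM with vehicle (SD, n = 2 each), a log2 change of 1.87 by edgeR (adjusted p = 8.53e-05). Pbxip1, which blocks Pbx and Hox binding to DNA, fell by 1.01 on the log2 scale (adjusted p = 0.00028), and Irx5 rose by 1.77 (adjusted p = 0.00385). Under TEV plus reserpine, 1 of the 11 was higher and 1 lower than with TEV, and 2 were higher and 4 lower than with vehicle.

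The chromatin regulators of the clusters were called in both directions, where all genes tested gave 25.1% higher and 24.6% lower with TEV against vehicle, and 15.7% and 16% with TEV plus reserpine against TEV. Of 23 Polycomb genes, 9 rose and 5 fell with TEV against vehicle, with a median log2 change of 0.06. Ring1, a ubiquitin ligase of Polycomb complex 1, fell by 1.51 on the log2 scale (adjusted p = 0.00043), while Bmi1 rose by 0.90 (adjusted p = 0.00821) and Mtf2 by 0.69 (adjusted p = 0.00204). In the comparison of TEV plus reserpine with TEV, 3 of the 23 rose and 7 fell, among them Phc1, at 19.0 ± 0.159 CPM with TEV plus reserpine and 42.0 ± 7.89 CPM with TEV (SD, n = 2 each; edgeR log2 change -1.14, adjusted p = 0.00262). Of 16 trithorax-group and H3K27 demethylase genes, 4 rose and 3 fell with TEV against vehicle. Kdm6b, which removes the Polycomb mark, fell by 0.95 (adjusted p = 0.00047) and the methyltransferase gene Kmt2c by 0.60 (adjusted p = 0.00499). Of these 16, none rose and 3 fell with TEV plus reserpine against TEV, Kmt2d by 0.63 (adjusted p = 0.00755). Set against vehicle, TEV plus reserpine left 4 Polycomb genes higher and 5 lower, and 2 genes of the trithorax list higher and 4 lower.

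The retinoic acid pathway is set beside the AGGTCA strings shown in the promoters. Of its 14 genes tested, of 17 listed, 2 rose and 7 fell with TEV against vehicle, with a median log2 change of -0.82, and 2 were higher and 8 lower with TEV plus reserpine than with vehicle. Aldh1a2, a main enzyme of retinoic acid synthesis in the embryo, had 0 and 0.144 CPM with TEV plus reserpine, 0.0278 and 0.0382 CPM with TEV, and 17.7 and 15.9 CPM with vehicle. Aldh1a1, another enzyme of the same step, went the other way, with 79.4 and 84.3 CPM with TEV plus reserpine, 45.2 and 58.6 CPM with TEV, and 9.15 and 12.2 CPM with vehicle (TEV against vehicle, log2 change 2.30, adjusted p = 0.000125). The other gene that rose was the receptor gene Rarb. It had 0.536 and 0 CPM with TEV plus reserpine, 45.8 and 13.4 CPM with TEV, and 1.65 and 0 CPM with vehicle. Its edgeR log2 change with TEV against vehicle was 5.01 (adjusted p = 0.0124). That call was lost with DESeq2 (adjusted p = 0.191) and voom (adjusted p = 0.0665), and the log2 change was 3.95 without TEV replicate 1. The receptor gene Rarg fell by 1.33 on the log2 scale (adjusted p = 0.000123) and Dhrs3, which turns retinal back into retinol, fell by 3.24 (adjusted p = 0.000147). Of the 14, 3 rose and 2 fell with TEV plus reserpine against TEV. All genes tested gave 25.1% higher and 24.6% lower with TEV against vehicle. Fibroblast markers (median log2 change -5.11) and all 5 mesothelial markers (median -4.28) fell in that comparison, and their part in the retinoid falls was not tested. Whether retinoid signalling has a part in the Hox changes was not tested either.

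Of 17 other lung developmental transcription factors tested, of 20 listed, 4 rose and 9 fell with TEV against vehicle, 2 rose and 2 fell with TEV plus reserpine against TEV, and 1 was higher and 7 lower with TEV plus reserpine than with vehicle. All genes tested gave 25.1% higher and 24.6% lower in the first of these comparisons and 15.7% and 16% in the second. The falls with TEV included Nr2f1 (log2 change -2.39, adjusted p = 0.000375), Sox9, a factor of distal airway progenitors and cartilage (-2.01, adjusted p = 0.000717), and the endothelial factor Sox17 (-1.59, adjusted p = 0.00285). The marker values above apply to this list as well, and their part was not tested.

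Of 20 endothelial genes named in the literature as targets of Hox proteins or Foxf1, 8 rose and 8 fell with TEV against vehicle, with a median log2 change of 0.08, where all genes tested gave 25.1% higher and 24.6% lower. Vegfa averaged 14.8 ± 2.04 CPM with TEV and 156 ± 7.22 CPM with vehicle (SD, n = 2 each; edgeR log2 change -3.41, adjusted p = 9.82e-06). Vwf, the gene of von Willebrand factor, fell by 3.02 on the log2 scale (adjusted p = 2.82e-05), while Sele, the gene of E-selectin, rose by 2.63 (adjusted p = 0.00148; 3.41 without vehicle replicate 2) and Itga3 by 1.96 (adjusted p = 9.82e-06). Of the 20, 7 rose and 2 fell with TEV plus reserpine against TEV, where 15.7% and 16% of all genes did. Kdr, the gene of the main VEGF receptor, had 463 and 495 CPM with TEV plus reserpine, 65.3 and 105 CPM with TEV, and 343 and 306 CPM with vehicle, a log2 change of 2.48 with TEV plus reserpine against TEV (adjusted p = 0.000842). Against vehicle, 10 of the 20 were higher and 5 lower with TEV plus reserpine. Pecam1, Tek and Kdr of this list are also among the 12 endothelial markers. The marker values above apply to this list as well, and their part in its changes, that of Vegfa included, was not tested. No link between these genes and the members was measured.

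Some members cannot be counted apart from their neighbours. In the GENCODE annotation 17 of the 36 share exonic bases with another gene, 5 of them with a protein-coding gene on the same strand (Hoxa2, Hoxa3, Hoxd3, Hoxd4 and Pbx2) and 13 with a gene on the opposite strand. Beside Hoxb3 and Hoxb2 these 13 include Hoxa7, of whose exonic bases the antisense gene Hoxaas3 covers 20.4%. Of the noncoding genes of the Hox clusters, 19 were looked for. None was found by name among the symbols of the deposited table, so they are not analysed here.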

How the data were processed

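Expression was measured by polyA RNA sequencing in 6 libraries, 2 per group, as the sample labels name them; the wording of the series leaves room for reserpine in all cells. The submitters' processing notes list kallisto 0.45.0, R 4.0.0, edgeR and limma. Deposited by the authors were estimated counts per symbol, of which 61.2% are not whole, and a filtered table of 13098 genes holding the same values (0 differ). The notes name GRCh38 although the symbols are those of mouse, so the files' genes are given no coordinates; strand is not stated. Replicate numbers are those of the titles; replicates 1 and 2 of both vesicle groups are the columns numbered 2 and 3 in the deposited table.

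Estimated counts were rounded and filtered with filterByExpr to 15035 genes, scaled with TMM and fitted in 1 edgeR 4.0.16 quasi-likelihood model of all 6 libraries (R 4.3.3; 3 residual degrees of freedom), from which the 3 comparisons are contrasts. Adjusted p-values are Benjamini-Hochberg over all genes, and an SE is the absolute log2 change divided by the square root of F. CPM of single genes were computed from the rounded, filtered counts. Marker sums used the rounded counts of all listed genes found, whether or not they passed the filter, with the same scaling. The procedure was tested on simulated data. Exon sharing was read from GENCODE M21. Alternatives were DESeq2 1.42.0, limma 3.58.1 voom, library size alone, other filters, a replicate block, 2 groups alone, thinned counts and leaving out each library. A rule based on level (5 CPM in a group mean) and on calls set which genes are named; Gm28230 was chosen after its values were seen, as was which permitted list genes to name. The members and lists were chosen with earlier results of these data known. Some genes are not reported here one by one.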

Additional observations from a re-analysis of the deposited data

How the results depend on the processing

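With TEV against vehicle, between 7 and 11 members were called higher and between 16 and 18 lower over the alternatives run on all libraries, and 22 of 26 calls held in all of them and without each library; 19 of 25 did with TEV plus reserpine against vehicle and 2 of 6 with TEV plus reserpine against TEV. No called member changed sign in these settings. With only the 2 groups compared, 5 members were lower with TEV plus reserpine than with TEV, against 3. Leaving out 1 library gave 0 to 3 members higher and 2 to 5 lower in that comparison, and 5 to 7 members higher with TEV plus reserpine against vehicle, against 9. DESeq2 lost Hoxa6 (adjusted p = 0.0795) and Hoxa10 (adjusted p = 0.0909) with TEV against vehicle. Same-numbered libraries did not deviate together (correlations 0.0189 for TEV and vehicle, -0.0418 for TEV plus reserpine and TEV, 0.0237 for TEV plus reserpine and vehicle). With 2 libraries a group these values cannot show whether a batch was shared. The replicate numbers follow the titles: the columns of both vesicle groups are numbered 2 and 3 in the deposited table and those of vehicle 1 and 2. With the replicate block, 7 members were higher and 16 lower with TEV against vehicle, 2 and 3 with TEV plus reserpine against TEV, and 6 and 17 with TEV plus reserpine against vehicle. The calls it lost included Hoxd3 (adjusted p = 0.0524) and Foxf1 between the vesicle groups (adjusted p = 0.0531), where voom also lost Foxf1 (adjusted p = 0.161). Library size alone moved the median of all genes to -0.11 for TEV against vehicle, 0.08 between the vesicle groups and -0.07 for TEV plus reserpine against vehicle, where it lost Meis2 (adjusted p = 0.0663).

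Some uncalled log2 changes changed sign; the cause was not tested. Between TEV plus reserpine and TEV these were Hoxa2 (DESeq2 0.0048, library size 0.0712), Hoxa6 (voom -0.0292), Hoxb5 (library size 0.02, thinned 0.0590) and Hoxb6 (thinned -0.0169). Hoxd3 itself was not refitted, but the sum of Hoxd3, Hoxd4 and Gm28230, added after seeing the data, gave 0.15 there, against -0.93 for Hoxd3 alone. Between TEV plus reserpine and vehicle they were Hoxa4 (replicate block 0.0025, thinned 0.015) and Hoxb7 (thinned 0.0168). Leaving out 1 library, the ranges with TEV against vehicle were -0.17 to 0.47 for Foxf2 and -0.18 to 1.30 for Pbx4. For TEV plus reserpine against TEV they were -0.28 to 0.48 (Hoxa10), -0.15 to 0.14 (Hoxa2), -0.40 to 0.45 (Hoxa6), -0.31 to 0.19 (Hoxb5), -0.196 to 0.0418 (Meis3), -0.872 to 0.0696 (Pbx4), -0.0873 to 0.672 (Tbx2) and -0.389 to 0.65 (Tbx3). For TEV plus reserpine against vehicle they were -0.28 to 0.32 (Hoxa4), -0.0985 to 0.0722 (Hoxb7), -0.00949 to 0.197 (Pbx2) and -0.53 to 0.95 (Pbx4). Low counts limit members such as Hoxa10, and with 2 libraries a group a call that 1 library ends is weak.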
